A study of Homo sapiens with 12 samples.

Results

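The genes described here encode 10 matricellular proteins and their close relatives: SPARC, SPOCK1, SPOCK2 and SMOC1 of the SPARC family, the thrombospondins THBS1, THBS2, THBS3 and THBS4, tenascin C (TNC) and F-spondin (SPON1). They were chosen by gene name from families of secreted proteins with earlier results of the same libraries in view, and were read as 10 of the 58735 genes in the deposited tables. All 10 were among the 17115 genes with enough reads to be tested. Which measured values led to the choice is not recorded, so every comparison below is treated as having been used: changes of the members are described with their standard errors, and the number of members past a threshold is set beside the share of all genes but supports nothing.

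Messenger RNA was sequenced from HEK293, a human embryonic kidney cell line, in 12 libraries that form 4 groups of 3. The groups were EXT1 knockdown cells in suspension (EXT1kd suspension), wild-type cells in suspension (WT suspension), EXT1 knockdown cells in adherent culture (EXT1kd adherent) and wild-type cells in adherent culture (WT adherent). EXT1 is a glycosyltransferase that builds the heparan sulfate chain, and the labels give neither the method of its knockdown nor whether a single clone or a pool was used. Suspension cells were shaken at 120 rpm in serum-free EX-CELL 293 medium, whereas flasks with DMEM and fetal bovine serum (FBS) held the adherent cells, which were lifted with trypsin, all at 37 °C and 5% CO2 and after 5 passages. Medium, serum, shaking and harvest thus change together and cannot be told apart in the culture comparison. The labels do not say whether libraries of a group came from separate cultures, so p-values measure only the spread between libraries, which may be technical.

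Matricellular proteins are secreted into the extracellular matrix but do not build its load-bearing fibres; they bind collagens, growth factors, proteases and cell-surface receptors and are best known for loosening or tuning cell adhesion. SPARC binds collagen and calcium, its relatives the testicans (SPOCK genes) carry heparan or chondroitin sulfate chains, thrombospondins bind heparan sulfate, CD36, CD47 and integrins, and tenascin C forms star-shaped multimers that interfere with adhesion to fibronectin. Heparan sulfate is the product of the knocked-down enzyme and a ligand of several of these proteins.

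The libraries held 13.9 to 21.4 M reads assigned to genes. Levels are given as counts per M reads (CPM) scaled by the trimmed mean of M-values, and as fragments per kilobase and M reads (FPKM) where genes are compared with each other. EXT1 itself had 15.4, 13.1 and 15.3 CPM in EXT1kd suspension libraries, against 49.5, 54.6 and 47.9 CPM in WT suspension libraries. It had 12.5, 11.99 and 11.86 CPM in EXT1kd adherent libraries, against 53.2, 53.1 and 51.8 CPM in WT adherent libraries, so no library went against its label. A list of 6 genes typical of the HEK293 line was read in full in every group, summing to between 339 and 463 CPM. Mitochondrially encoded reads made up 6.25 to 8.19% of EXT1kd suspension, 6.55 to 8.3% of WT suspension, 4.9 to 5.43% of EXT1kd adherent and 5.46 to 6.45% of WT adherent libraries, and their part in the results was not tested.

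Promoter sequence was available from RefSeq (GRCh38.p14) for 8 of the 10 genes, in 11 entries, with none for SPOCK1 and SPON1. The stretches below lie upstream of a start annotated by RefSeq, which for SPARC, TNC and SMOC1 is inside the gene range of the deposited table. They are shown for 4 genes: SPARC, whose groups differ most after knockdown in suspension, TNC, the member with the most reads, THBS1, the best-studied thrombospondin, and SMOC1, the member whose level moved least. Each is written 5′ to 3′ on the strand of the gene. Capitals mark the motifs searched on both strands: GGAGGAGG, a purine repeat, in SPARC, and in the others the GC box GGGCGG, the CCAAT box, the TEAD core GGAATG and the TATA boxes TATAAA and TATATAA.

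SPARC, chr5:151686976-151687165, minus strand: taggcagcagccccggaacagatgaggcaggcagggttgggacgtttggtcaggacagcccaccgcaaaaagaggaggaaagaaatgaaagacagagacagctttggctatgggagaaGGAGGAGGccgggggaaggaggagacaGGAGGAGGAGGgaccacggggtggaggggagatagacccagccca
TNC, chr9:115118208-115118407, minus strand: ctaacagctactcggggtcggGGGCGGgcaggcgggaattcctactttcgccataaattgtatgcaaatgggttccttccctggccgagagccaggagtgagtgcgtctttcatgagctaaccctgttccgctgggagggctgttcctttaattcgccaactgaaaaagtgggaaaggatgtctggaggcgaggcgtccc
TNC around its TATA box, chr9:115118172-115118194, minus strand: gagctcgcTATATAAgccagcca
THBS1, chr15:39580829-39581078, plus strand: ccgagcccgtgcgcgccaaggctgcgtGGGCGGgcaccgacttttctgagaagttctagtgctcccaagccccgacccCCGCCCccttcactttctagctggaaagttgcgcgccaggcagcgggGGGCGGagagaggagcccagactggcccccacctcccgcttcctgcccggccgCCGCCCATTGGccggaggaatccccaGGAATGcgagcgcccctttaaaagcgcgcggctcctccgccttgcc
SMOC1, chr14:69879166-69879415, plus strand: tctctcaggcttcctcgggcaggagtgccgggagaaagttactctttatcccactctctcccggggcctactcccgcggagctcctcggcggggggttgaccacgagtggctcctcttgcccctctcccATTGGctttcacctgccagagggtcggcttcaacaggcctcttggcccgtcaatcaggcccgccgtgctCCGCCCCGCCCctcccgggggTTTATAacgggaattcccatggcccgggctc

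In SPARC the purine repeat began 132, 105 and 102 bases before the start, the last 2 of these overlapping, and 9.45% of 35114 promoter windows of 250 bases held it. SPARC also held GGAATG at 17 bases, past the end of the stretch shown, a motif in 11.9% of windows. The TNC start was preceded by TATATAA at 29 bases, which 2.42% of windows held, and the SMOC1 start by TATAAA, read on the opposite strand, at 31 bases, which 10.7% held. TNC also had a GC box at 229 bases, and SMOC1 had GC boxes at 52 and 47 bases and a CCAAT box at 121 bases. THBS1 had no TATA match but 4 GC boxes (42.6% of windows held at least 1), a CCAAT box (32%) and GGAATG at 46 bases. TGANTCA, the AP-1 element, was in none of the 11 member windows and in 6.57% of all windows. These matches describe letters in the window and nothing about which factor bound there.

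Per unit of gene length the members spanned more than 2 orders of magnitude, with SMOC1, TNC, SPARC and SPON1 at the top and THBS2 at the bottom of every group. EXT1kd suspension cells had TNC first at 21.2 ± 0.26 FPKM (SD, n = 3, as throughout), SMOC1 next at 16.5 ± 1.8 FPKM, and then a step down to SPARC at 2.58 ± 0.30 FPKM and SPON1 at 2.46 ± 0.098 FPKM, which overlapped. WT suspension cells had SMOC1 first at 17.95 ± 0.71 FPKM, followed by SPARC at 14.7 ± 0.74 FPKM, TNC at 12.5 ± 0.49 FPKM and SPON1 at 7.05 ± 0.51 FPKM, each clear of the next. Adherent cells of either line had SMOC1 alone at the top, at 14.4 ± 0.75 FPKM in EXT1kd adherent cells and 14.0 ± 0.91 FPKM in WT adherent cells. Next came SPARC at 5.04 ± 0.19 FPKM in EXT1kd adherent and 2.61 ± 0.070 FPKM in WT adherent cells, where it overlapped TNC at 2.51 ± 0.19 FPKM. The other 6 members averaged at most 3.08 FPKM in any group, and THBS2 was between 0.042 and 0.091 FPKM on average.

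**Figure D1:**
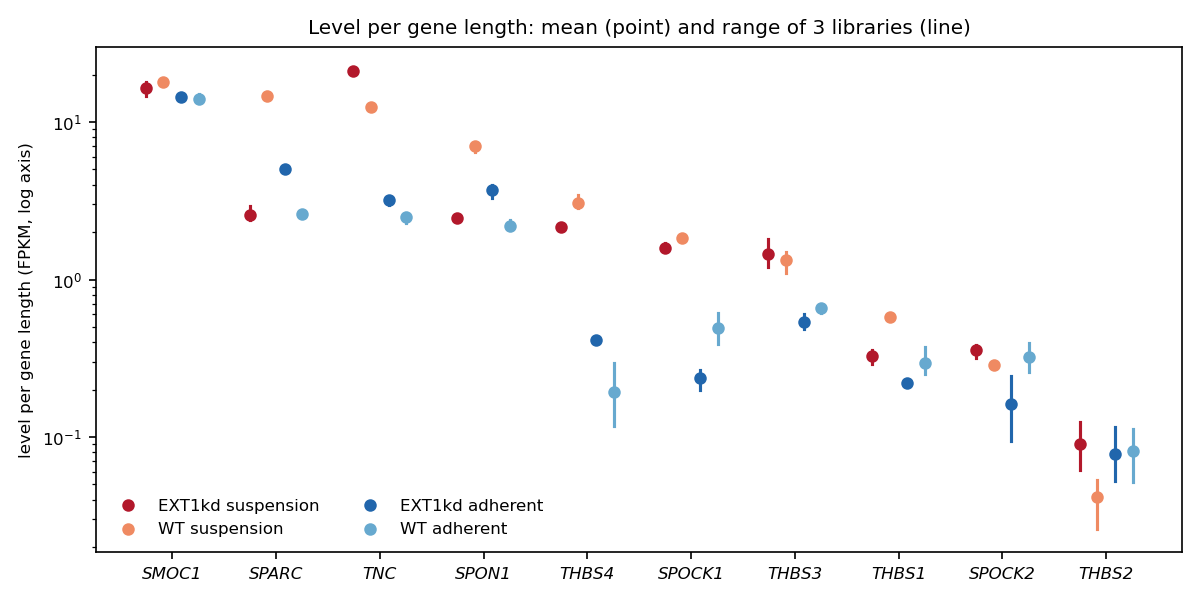
Level per gene length (FPKM, log axis) of the 10 members, with the mean of 3 libraries as a point and their range as a line, in EXT1kd suspension, WT suspension, EXT1kd adherent and WT adherent cells. SMOC1 is between 14.0 and 17.95 FPKM in the 4 groups, whereas TNC is at 21.2 FPKM in EXT1kd suspension and at 2.51 FPKM in WT adherent cells.

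Summed over the 10 genes, the level was 335 ± 3.5 CPM in EXT1kd suspension, 347 ± 5.6 CPM in WT suspension, 149 ± 5.5 CPM in EXT1kd adherent and 123 ± 2.1 CPM in WT adherent cells. No group overlapped another in this sum, and the cultures lay farther apart than the lines. The makeup of the sum also differed in suspension, where TNC gave 61.2% of the sum in EXT1kd suspension cells and 34.9% in WT suspension cells. In adherent culture its share was 21.1% in EXT1kd and 20% in WT cells.

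**Figure D2:**
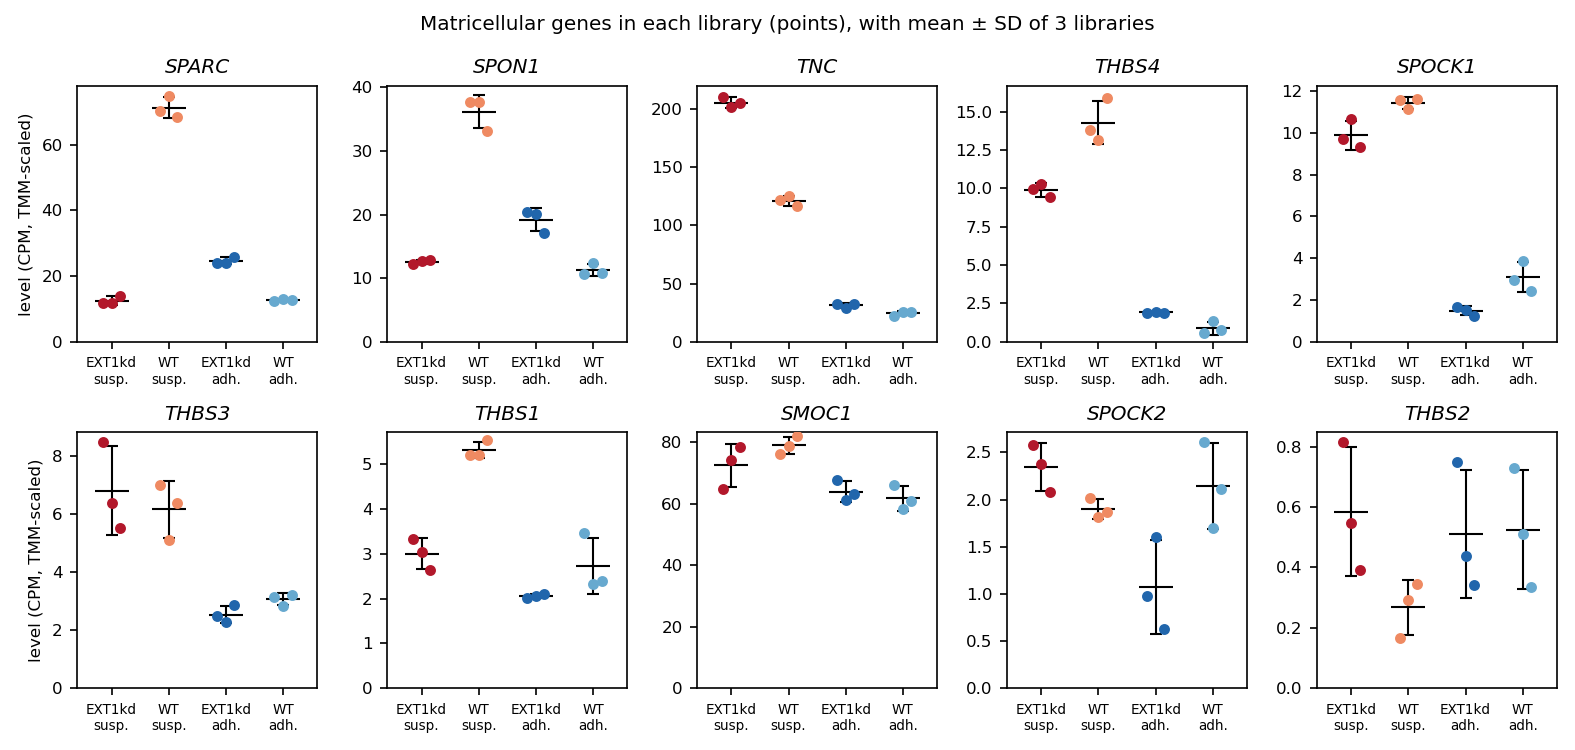
Level of each member (CPM) in every library, with the mean and SD of the 3 libraries, for EXT1kd suspension, WT suspension, EXT1kd adherent and WT adherent cells from left to right. SPARC and SPON1 stand highest in WT suspension cells, TNC in EXT1kd suspension cells, and SMOC1 is between 58.1 and 81.9 CPM in all 12 libraries.

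SPARC, the collagen-binding founder of its family (ENSG00000113140, chr5:151661096-151687165, minus strand, GRCh38), was lower in knockdown cells in suspension and higher in knockdown cells in adherent culture. It had 11.7, 11.7 and 14.0 CPM in EXT1kd suspension libraries, against 70.4, 74.7 and 68.5 CPM in WT suspension libraries. In adherent culture it had 24.1, 24.0 and 25.9 CPM in EXT1kd libraries, against 12.5, 13.1 and 12.7 CPM in WT libraries. Neither pair of groups overlapped, and the lowest groups, EXT1kd suspension and WT adherent, could not be set apart from each other by their ranges. SPARC was 5.70-fold lower in knockdown cells in suspension (log2 fold change -2.51, SE 0.09) and 1.93-fold higher in adherent culture (log2 fold change 0.95, SE 0.09). Between cultures, its level in suspension was 1.98-fold lower than in adherent culture in EXT1kd cells (-0.98, SE 0.09) and 5.58-fold higher in WT cells (2.48, SE 0.09). In bulk RNA, fewer cells making a transcript and less transcript per cell cannot be told apart.

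SPON1, which encodes the neuronal and matrix protein F-spondin (ENSG00000262655, chr11:13962689-14267884, plus strand), had the same 2 highest groups, with smaller differences. Its libraries read 12.2, 12.7 and 12.8 CPM in EXT1kd suspension, against 37.8, 37.6 and 33.2 CPM in WT suspension cells. They read 20.5, 20.1 and 17.1 CPM in EXT1kd adherent, against 10.6, 12.3 and 10.8 CPM in WT adherent cells. As with SPARC, WT suspension was the highest group, EXT1kd adherent came next, and the other groups overlapped. Its level was 2.87-fold lower with knockdown in suspension (log2 fold change -1.52, SE 0.10) and 1.71-fold higher in adherent culture (0.77, SE 0.10). The median gene of chromosome 11 moved the same way, by -0.23 in suspension and 0.29 in adherent culture (630 genes of at least 5 CPM). With chromosome medians taken off, the log2 fold changes of SPON1 were -1.30 (SE 0.10) and 0.49 (SE 0.10), still past the threshold. For SPARC, the medians of chromosome 5 were 0.03 and -0.12 (547 genes), and its values without them were -2.52 and 1.09.

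Over the 12 libraries, SPARC and SPON1 were the most alike pair among the 8 members that reached 1 CPM and differed at least 2-fold between groups. Likeness was measured as the root mean square difference of centred log2(CPM + 0.5) values, which was 0.38 for this pair, against a spread of 1.00 for SPARC itself. Among all tested genes of at least 5 CPM, the closest to SPARC was CRABP2, a retinoic acid binding protein, at 0.28. CRABP2 averaged 11.7 CPM in EXT1kd suspension, 42.8 CPM in WT suspension, 16.2 CPM in EXT1kd adherent and 8.18 CPM in WT adherent cells. The closest to SPON1 were ECEL1 at 0.20, COL5A1, a chain of type V collagen, at 0.21, and the interferon-induced IFITM3 at 0.21. These genes were picked for likeness, so their similarity is a description. IFITM3 shares sequence with its paralogues, which makes its count uncertain.

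**Figure D3:**
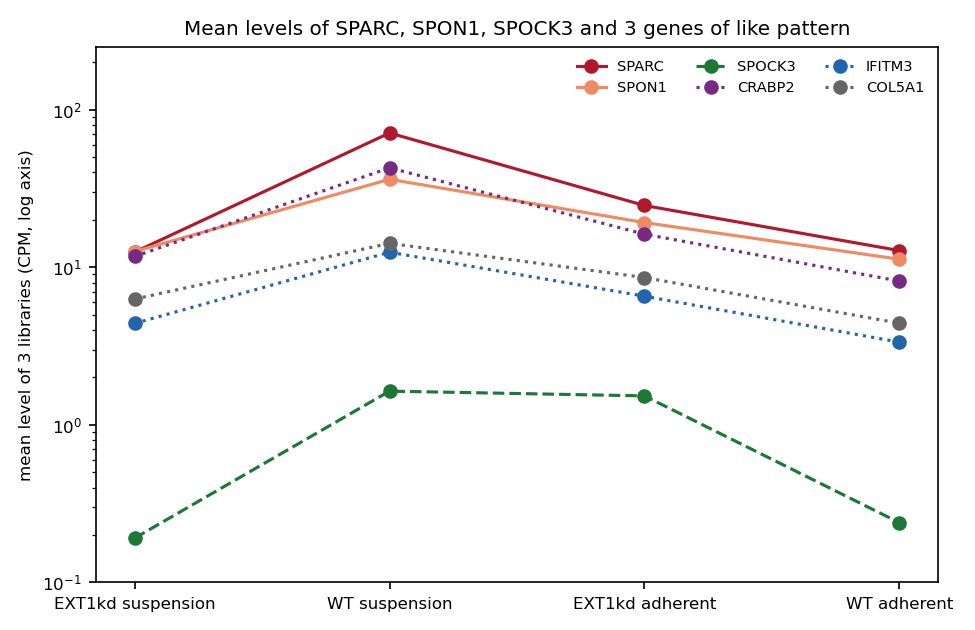
Mean level of 3 libraries (CPM, log axis) in EXT1kd suspension, WT suspension, EXT1kd adherent and WT adherent cells for SPARC, SPON1, the testican SPOCK3 and 3 genes of like pattern, joined by lines only to guide the eye. WT suspension gives the highest mean of each gene, 71.2 CPM for SPARC and 36.2 CPM for SPON1, and SPOCK3 has a second high group, EXT1kd adherent.

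TNC (ENSG00000041982, chr9:115019578-115118257, minus strand), which encodes tenascin C, was the most abundant member in reads and was higher in knockdown cells in either culture. It had 210.2, 201.2 and 204.6 CPM in EXT1kd suspension, against 121.3, 125.3 and 116.8 CPM in WT suspension libraries. In adherent culture the levels were 32.8, 28.9 and 32.5 CPM in EXT1kd and 22.3, 25.5 and 25.4 CPM in WT libraries. No group overlapped another. Knockdown went with a 1.70-fold higher level in suspension (log2 fold change 0.76, SE 0.07) and a 1.28-fold higher level in adherent culture (0.36, SE 0.08). The median gene of chromosome 9 also stood higher in knockdown cells, by 0.30 in suspension and 0.28 in adherent culture (481 genes). Without chromosome medians, the change of TNC was 0.45 in suspension, still past the threshold, and 0.07 in adherent culture, where edgeR's adjusted p became 0.626. Suspension over adherent culture was the larger contrast, 6.54-fold in EXT1kd cells (2.71, SE 0.08) and 4.96-fold in WT cells (2.31, SE 0.08). Among the genes most like TNC were the NF-kappaB subunit RELB at 0.24 and the transporter SLC16A9 at 0.26.

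Of the thrombospondins, THBS4 moved most. It belongs with THBS3 to the subgroup that assembles into pentamers and lacks the angiogenesis-inhibiting repeats of THBS1 and THBS2. THBS4 (ENSG00000113296, chr5:79991311-80083287, plus strand) had 9.97, 10.3 and 9.42 CPM in EXT1kd suspension, against 13.8, 13.2 and 15.9 CPM in WT suspension libraries. It had 1.90, 1.97 and 1.88 CPM in EXT1kd adherent, against 0.546, 1.36 and 0.768 CPM in WT adherent libraries. The 4 groups did not overlap, and the order of the lines turned with culture, as for SPARC and SPON1. Relative to adherent culture, suspension gave 16-fold more THBS4 in WT cells (exact binomial 95% interval 11.9 to 21.7, with 9 reads in the lowest library) and 5.16-fold more in EXT1kd cells. With knockdown its log2 fold change was -0.53 (SE 0.15) in suspension and 1.10 (SE 0.26) in adherent culture. The fall in suspension had an adjusted p of 0.0172 in edgeR's quasi-likelihood test and was not past the threshold without WT suspension replicate 3 (adjusted p = 0.0956), without EXT1kd suspension replicate 3 (0.0618) or on log2(FPKM + 0.1) values (0.0844). FEZ1, an adaptor of axonal transport, the protease gene HTRA1 and the hyaluronan receptor gene CD44 were the genes most like it. AC112184.1, a processed pseudogene on the same strand, overlaps THBS4. In WT adherent cells, the low side of the 16-fold ratio, the pseudogene had 34 reads against 49 of THBS4.

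THBS3 (ENSG00000169231, chr1:155195588-155209051, minus strand) passed the threshold for culture and not for knockdown. EXT1kd suspension libraries had 8.48, 6.39 and 5.50 CPM and WT suspension libraries 7.002, 5.09 and 6.36 CPM. EXT1kd adherent libraries had 2.48, 2.27 and 2.85 CPM and WT adherent libraries 3.15, 2.84 and 3.22 CPM. The lines overlapped in each culture, whereas the cultures did not overlap in either line. Suspension over adherent was 2.68-fold in EXT1kd cells (log2 fold change 1.41, SE 0.20) and 2.00-fold in WT cells (1.00, SE 0.19), and the changes with knockdown were 0.14 (SE 0.18) in suspension and -0.27 (SE 0.21) in adherent culture, neither past the threshold. MTX1, on the opposite strand, overlaps THBS3 and had 3471 reads against 925, so reads of this pair cannot be told apart if the counting ignored strand. MTX1 averaged 14.7 CPM in EXT1kd suspension, 17.1 CPM in WT suspension, 17.5 CPM in EXT1kd adherent and 19.2 CPM in WT adherent cells, which is the reverse of the culture order of THBS3.

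THBS1 (ENSG00000137801, chr15:39581079-39599466, plus strand), a trimeric thrombospondin that activates latent TGF-beta, had 3.32, 3.04 and 2.64 CPM in EXT1kd suspension, against 5.21, 5.21 and 5.53 CPM in WT suspension libraries. Its adherent levels were 2.02, 2.05 and 2.11 CPM in EXT1kd and 3.46, 2.33 and 2.40 CPM in WT libraries. Knockdown libraries lay below wild-type ones in each culture without overlap. The fall of THBS1 passed the threshold in suspension (log2 fold change -0.83, SE 0.19, 1.77-fold lower), whereas the adherent value was -0.40 (SE 0.21) and did not. The difference between those values, -0.43 (SE 0.28), was not past the threshold either. WT cells had 1.95-fold more THBS1 in suspension than in adherent culture (0.97, SE 0.19). In EXT1kd cells the value was 0.54 (SE 0.21) with an adjusted p of 0.0357, which was lost under 9 of 21 alternative settings. Among these were DESeq2 (adjusted p = 0.0554) and leaving out any EXT1kd adherent library (0.0557 to 0.0705) or EXT1kd suspension replicate 1 (0.0784) or 2 (0.0798). FSIP1, on the opposite strand, overlaps THBS1 and had 170 reads against 656.

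THBS2 (ENSG00000186340, chr6:169215780-169254044, minus strand), the other trimeric angiogenesis inhibitor, was barely read, with 94 reads in all 12 libraries. Its levels were 0.814, 0.547 and 0.393 CPM in EXT1kd suspension, 0.168, 0.293 and 0.345 CPM in WT suspension, 0.749, 0.439 and 0.342 CPM in EXT1kd adherent and 0.728, 0.511 and 0.336 CPM in WT adherent libraries. No comparison passed the threshold. The ratio of EXT1kd to WT suspension was 2.18 (exact binomial 95% interval 1.09 to 4.57), so a difference of this size could not be settled at this depth. An antisense gene, BX322234.1, overlaps it and had 42 reads.

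The testicans SPOCK1 and SPOCK2 are proteoglycans of the SPARC family. SPOCK1 (ENSG00000152377, chr5:136975298-137598379, minus strand) had 9.70, 10.6 and 9.31 CPM in EXT1kd suspension, against 11.6, 11.1 and 11.6 CPM in WT suspension libraries. It had 1.67, 1.54 and 1.25 CPM in EXT1kd adherent, against 2.97, 3.86 and 2.45 CPM in WT adherent libraries. Knockdown libraries lay below wild-type libraries in each culture, but the fall passed the threshold only in adherent culture (log2 fold change -1.05, SE 0.21, 2.08-fold lower), against -0.21 (SE 0.14) in suspension. The difference of 0.84 (SE 0.25) between those values had an adjusted p of 0.0212 in edgeR and was lost under 6 of 20 alternatives. These included removal of chromosome medians (0.69, adjusted p = 0.0769) and leaving out WT adherent replicate 2 (0.0581), EXT1kd adherent replicate 3 (0.0732) or EXT1kd suspension replicate 2 (0.0513). Suspension went with 6.65-fold more SPOCK1 in EXT1kd cells (2.73, SE 0.18) and 3.70-fold more in WT cells (1.89, SE 0.16). The genes closest to it were the receptor EDA2R at 0.16, the transporter SLC16A14 at 0.19 and the G protein subunit GNG2 at 0.19.

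SPOCK2 (ENSG00000107742, chr10:72059035-72089032, minus strand) was low throughout, at 2.58, 2.37 and 2.08 CPM in EXT1kd suspension, against 2.02, 1.81 and 1.87 CPM in WT suspension libraries. EXT1kd adherent libraries had 0.979, 1.61 and 0.627 CPM, against 2.61, 1.70 and 2.11 CPM in WT adherent libraries. EXT1kd adherent was thus the low group, below each of the others. Adherent knockdown cells had 2.00-fold less SPOCK2 than adherent WT cells (-1.03 on the log2 scale, SE 0.30), with an adjusted p of 0.0144 in edgeR. The call was lost when single libraries were left out: adjusted p was 0.0643 without WT adherent replicate 1, 0.0559 without EXT1kd adherent replicate 1 and 0.0958 without EXT1kd adherent replicate 3. EXT1kd cells had 2.19-fold more in suspension than in adherent culture (1.16, SE 0.30), and WT cells showed no change past the threshold (-0.17, SE 0.27).

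SMOC1 (ENSG00000198732, chr14:69854131-70032366, plus strand), a SPARC-family protein known from frog embryos as an antagonist of BMP signalling, held the narrowest range. Its levels were 64.7, 74.0 and 78.5 CPM in EXT1kd suspension, 76.2, 78.6 and 81.9 CPM in WT suspension, 67.5, 61.1 and 63.1 CPM in EXT1kd adherent and 66.1, 58.1 and 60.9 CPM in WT adherent libraries. The highest group mean was 1.28-fold the lowest. Its change with knockdown was -0.12 (SE 0.08) in suspension and 0.05 (SE 0.08) in adherent culture, neither past the threshold, while the median gene of chromosome 14 stood at -0.36 in suspension and 0.01 in adherent culture (390 genes). With chromosome medians removed, the value in suspension was 0.20 (SE 0.08, adjusted p = 0.107 in edgeR). Suspension over adherent culture was 0.35 (SE 0.08) in WT cells, past the threshold, and 0.18 (SE 0.08, adjusted p = 0.0649) in EXT1kd cells, which passed under 9 of 21 alternatives. These included leaving out WT adherent replicate 2 (adjusted p = 0.0410) or 3 (0.0493), EXT1kd adherent replicate 1 (0.0412) and EXT1kd suspension replicate 1 (0.00593). RPL7AP6, a ribosomal protein pseudogene within SMOC1 on the other strand, had 5028 reads against 13955 of SMOC1 and averaged 27.9, 26.5, 23.9 and 21.7 CPM in EXT1kd suspension, WT suspension, EXT1kd adherent and WT adherent cells.

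Set side by side for suspension culture, knockdown went with higher TNC and with lower SPARC, SPON1, THBS1 and THBS4. That is 1 member higher, 4 lower and 5 not past the threshold, where 8.29% of all tested genes were higher, 12.6% lower and 20.9% changed in either direction. In adherent culture SPARC, SPON1, THBS4 and TNC were higher and SPOCK1 and SPOCK2 lower, or 4 higher, 2 lower and 4 not past the threshold, where 15.2% of tested genes were higher, 11.8% lower and 27.1% changed. The median log2 fold change of the members was -0.17 in suspension and 0.02 in adherent culture, against -0.001 and -0.007 for all tested genes. SPARC, SPON1 and THBS4 were lower with knockdown in suspension and higher with it in adherent culture, as were 2.64% of tested genes, and TNC was higher in both, as were 2.02%. These shares are given as a background and nothing is read from them, since the comparisons belong to those the choice of members may have used.

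**Figure D4:**
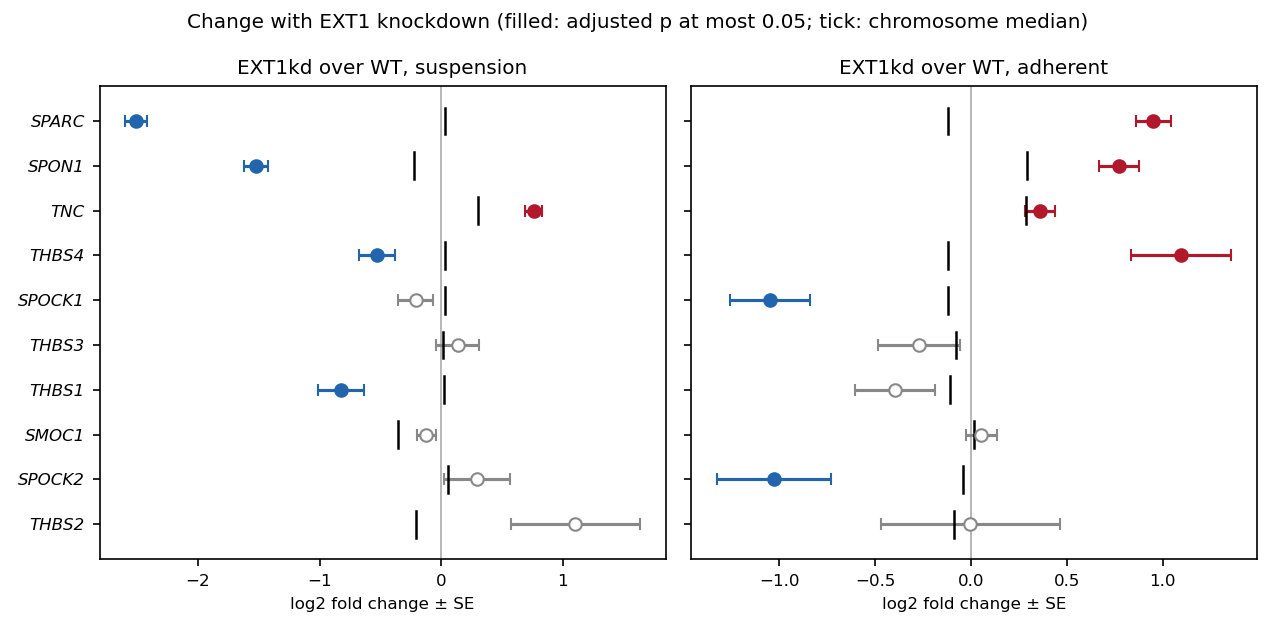
Log2 fold change of EXT1kd over WT cells with its SE for each member, in suspension (left) and adherent culture (right), from edgeR on all 12 libraries. Filled points pass an adjusted p of 0.05, and black ticks give the median of the chromosome. SPARC, SPON1 and THBS4 lie left of 0 in suspension and right of it in adherent culture, and TNC in adherent culture (0.36) lies close to its chromosome median (0.28).

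The culture comparison moved more of the set than knockdown did, and more of all tested genes as well. In EXT1kd cells, 6 members were higher in suspension than in adherent culture, 2 (SPARC and SPON1) were lower and 2 (SMOC1 and THBS2) did not pass, where 26.8% of tested genes were higher, 29% lower and 55.7% changed. In WT cells, 8 members were higher in suspension, none was lower, and SPOCK2 and THBS2 did not pass, where 27.7% of tested genes were higher, 28% lower and 55.7% changed. The median log2 fold change of the members was 0.85 in EXT1kd and 1.34 in WT cells, against -0.008 and -0.02 for all genes. By the fitted log2 fold change, 5 of the 10 members changed at least 2-fold in each line, all past the threshold. Of all tested genes, 14.4% in EXT1kd and 14.3% in WT cells changed at least 2-fold and passed the threshold. THBS3 in WT cells, at a fitted log2 fold change of 0.999, is not among the 5. The call of SPON1 in EXT1kd cells (log2 fold change -0.61, SE 0.10) did not hold once chromosome medians were removed (-0.23, adjusted p = 0.0714 in edgeR).

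**Figure D5:**
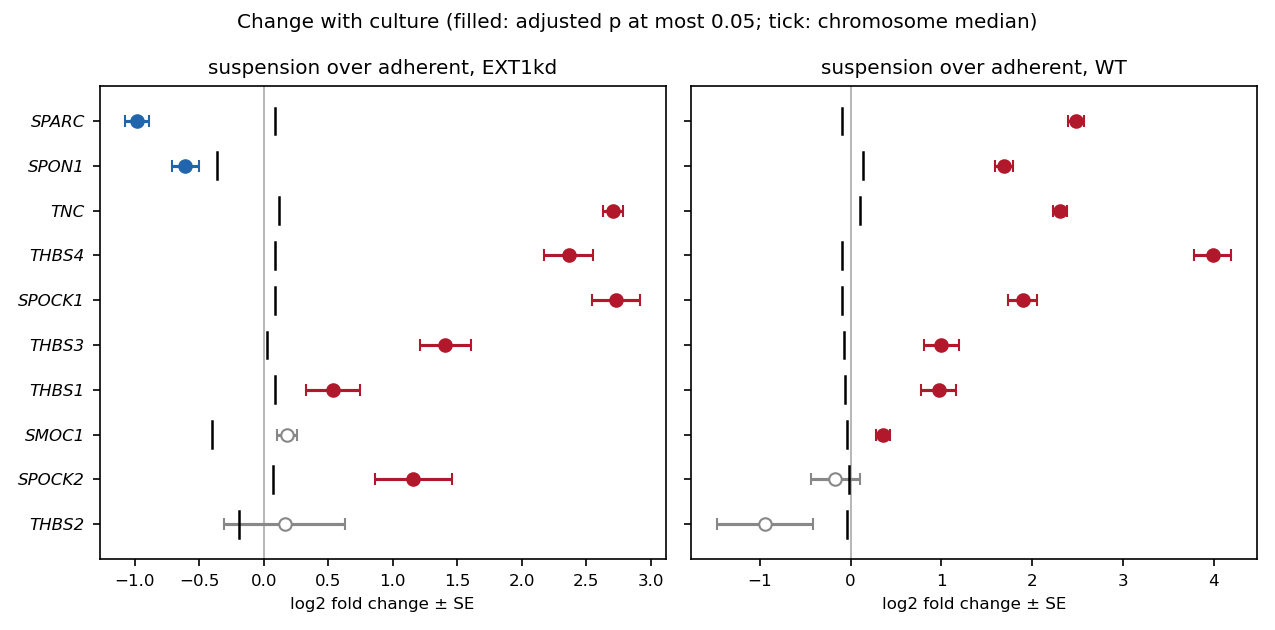
Log2 fold change of suspension over adherent culture with its SE for each member, in EXT1kd (left) and WT cells (right), from edgeR on all 12 libraries. Filled points pass an adjusted p of 0.05, and black ticks give the median of the chromosome. TNC and SPOCK1 lie above 1.8 in either line, whereas SPARC is at -0.98 in EXT1kd and 2.48 in WT cells.

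The difference between the knockdown effects, suspension minus adherent, was tested as an interaction. SPARC had the most negative value at -3.46 (SE 0.13), followed by SPON1 at -2.29 (SE 0.15) and THBS4 at -1.62 (SE 0.30). SPOCK2 at 1.32 (SE 0.40), SPOCK1 at 0.84 (SE 0.25) and TNC at 0.40 (SE 0.10) were positive. The call of SPOCK2 (adjusted p = 0.0219 in edgeR) was lost without WT suspension replicate 2 (0.0502), EXT1kd adherent replicate 1 (0.0517) or 3 (0.0708), or WT adherent replicate 1 (0.0585). That is 3 higher and 3 lower, where 9.45% of tested genes were higher, 14.6% lower and 24% changed in either direction. THBS1, THBS2, THBS3 and SMOC1 did not pass, with values between -0.43 and 1.11. The comparisons share their libraries: the WT suspension group, for example, enters the knockdown contrast of suspension cells and the culture contrast of WT cells.

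Other matricellular genes were read for the same contrasts, from a list of 19 written with the members' behaviour known, of which 9 had enough reads to test. For this list and those that follow, the shares over all tested genes were 8.29% higher and 12.6% lower with knockdown in suspension and 15.2% higher and 11.8% lower in adherent culture, and the medians over all genes were -0.001 and -0.007. No list is read as differing from them. With knockdown in suspension 0 were higher, 4 lower and 5 not past the threshold, and the median log2 fold change was -0.36. In adherent culture 5 were higher, 2 lower and 2 not past it, with a median of 0.54. SPOCK3, the remaining testican, had 2 to 5 reads per library in EXT1kd suspension, 19 to 35 in WT suspension, 20 to 28 in EXT1kd adherent and 4 to 5 in WT adherent cells. It was 8.57-fold lower with knockdown in suspension (exact binomial 95% interval 4.42 to 19.98) and 6.38-fold higher with it in adherent culture (3.49 to 12.5), with an interaction of -5.73 (SE 0.64). Its directions were those of SPARC, whereas SPOCK1 and SPOCK2 were lower in adherent knockdown cells. FBLN5, the elastic fibre protein fibulin-5, averaged 10.4 ± 1.5, 13.4 ± 2.5, 7.92 ± 1.9 and 4.30 ± 0.50 CPM in EXT1kd suspension, WT suspension, EXT1kd adherent and WT adherent cells, and rose with knockdown in adherent culture (0.89, SE 0.19). SMOC2, the paralogue of SMOC1, had 1 to 21 reads per library and was 9.16-fold higher in suspension than in adherent WT cells (exact binomial 95% interval 4.14 to 27.5).

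Among 19 tested receptors and surface partners of these proteins, 1 was higher, 4 were lower and 14 did not pass with knockdown in suspension, with a median of -0.17. In adherent culture 9 were higher, 1 was lower and 9 did not pass, with a median of 0.30. PTPRZ1, a receptor phosphatase that binds tenascins, averaged 1.11 ± 0.15 CPM in EXT1kd suspension, against 2.80 ± 0.41 CPM in WT suspension cells, and 7.41 ± 1.3 CPM in EXT1kd adherent, against 3.89 ± 0.82 CPM in WT adherent cells. Like SPARC it fell with knockdown in suspension (log2 fold change -1.33, SE 0.25) and rose with it in adherent culture (0.93, SE 0.19). ITGA9, the integrin chain that binds tenascin C, averaged 4.25 ± 0.91 CPM in EXT1kd suspension, against 8.27 ± 0.46 CPM in WT suspension cells (-0.96, SE 0.20). This knockdown change in suspension had the opposite direction to that of TNC. Between cultures ITGA9 went the same way as TNC, with lower adherent means of 1.40 ± 0.47 CPM in EXT1kd and 1.64 ± 0.37 CPM in WT cells. ITGA8, another tenascin-binding integrin chain, was lower with knockdown in suspension (-1.49, SE 0.13) and in adherent culture (-0.92, SE 0.10), and was lower in suspension than in adherent cells of either line (-2.28 in EXT1kd, -1.71 in WT). Of the 19 genes, 8 were higher and 7 lower in suspension in EXT1kd cells (26.8% and 29% of all tested genes). In WT cells 13 were higher and 3 lower (27.7% and 28%). CD36, a receptor of THBS1, was near the limit of reading, with at most 14 reads in a library.

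Matrix proteases and their inhibitors numbered 15 tested, with 1 higher, 4 lower and 10 not past the threshold with knockdown in suspension (median -0.20). In adherent culture 6 were higher, 4 lower and 5 not past it (median -0.14). HTRA1, a secreted serine protease, averaged 15.6 ± 1.6 CPM in EXT1kd suspension, against 29.5 ± 1.7 CPM in WT suspension cells, and 3.46 ± 0.33 CPM in EXT1kd adherent, against 1.77 ± 0.27 CPM in WT adherent cells. Its log2 fold changes with knockdown were -0.92 (SE 0.11) and 0.96 (SE 0.18), and suspension over adherent culture in WT cells was 4.05 (SE 0.14), close to the 3.99 of THBS4. Of the 15 genes, 8 were higher and 4 lower in suspension than in adherent culture in EXT1kd cells (26.8% and 29% of all tested genes). In WT cells 9 were higher and 2 lower (27.7% and 28%). The membrane protease gene MMP14 was higher in suspension by 2.19 (SE 0.18) in EXT1kd and 2.17 (SE 0.17) in WT cells. TIMP3, a protease inhibitor held in the matrix, was higher in suspension by 1.51 (SE 0.07) in EXT1kd and 1.32 (SE 0.06) in WT cells.

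Collagens and their processing partners are what SPARC binds and chaperones. Of 10 tested, 1 was higher, 3 lower and 6 not past the threshold with knockdown in suspension (median -0.25), and 5 were higher, 0 lower and 5 not past it in adherent culture (median 0.21). COL5A1 averaged 6.29 ± 0.65 CPM in EXT1kd suspension, against 14.2 ± 1.9 CPM in WT suspension cells, and 8.61 ± 1.3 CPM in EXT1kd adherent, against 4.42 ± 0.19 CPM in WT adherent cells, with WT suspension highest and EXT1kd adherent next, as for SPARC. COL5A2, the other main chain of type V collagen, went the other way in suspension: 9.75 ± 0.45 CPM in EXT1kd and 5.28 ± 0.35 CPM in WT cells (0.88, SE 0.15). Fibroblasts are the cells that most strongly make these proteins, and 4 of 8 fibroblast markers had enough reads to test. Their sum was 19.0 to 19.9 CPM in EXT1kd suspension, 20.4 to 23.4 CPM in WT suspension, 28.8 to 33.5 CPM in EXT1kd adherent and 18.8 to 22.3 CPM in WT adherent libraries. Most of it was COL1A1, at 14.8 to 15.7, 16.2 to 17.9, 25.2 to 29.1 and 14.7 to 19.2 CPM in the same groups, while COL1A2 had 1 read in EXT1kd suspension, 1 in WT adherent and 0 in the other groups. THY1 had 0 reads in WT suspension cells, and FAP and DCN stayed at or below 0.341 CPM in every library. Other markers had other orders: COL3A1 had 102, 138, 38 and 54 reads, PDGFRB 32, 30, 3 and 6 reads and PDGFRA 48, 63, 136 and 112 reads in EXT1kd suspension, WT suspension, EXT1kd adherent and WT adherent cells. The part of these markers in the members' levels was not tested. Endothelial markers summed to between 1.29 and 3.08 CPM and leukocyte and platelet markers to at most 0.76 CPM in any library.

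Signals that thrombospondins and SMOC1 act on were read as well. Of 13 tested genes for latent TGF-beta and its receptors, 1 was higher, 2 lower and 10 not past the threshold with knockdown in suspension (median -0.01), and 5 were higher, 2 lower and 6 not past it in adherent culture (median 0.16). TGFB1 averaged 35.3 ± 3.7 CPM in EXT1kd suspension, against 42.5 ± 3.1 CPM in WT suspension cells, and 39.9 ± 3.5 CPM in EXT1kd adherent, against 21.8 ± 2.5 CPM in WT adherent cells, a rise of 0.87 (SE 0.10). LTBP2, a microfibril protein of the latent TGF-beta binding family that is also in the target list below, averaged 9.42 ± 0.54 CPM in EXT1kd suspension and 18.2 ± 1.6 CPM in WT suspension cells. Its fall of -0.95 (SE 0.12) stood beside a median of -0.36 for its chromosome. Of 8 tested TGF-beta target genes, 1 was higher, 2 lower and 5 not past the threshold with knockdown in suspension (median -0.02), and 4 were higher, 0 lower and 4 not past it in adherent culture (median 0.39). SMAD7, an inhibitor induced by TGF-beta, averaged 17.3 ± 0.50 CPM in EXT1kd suspension, 21.3 ± 1.4 CPM in WT suspension, 98.7 ± 4.8 CPM in EXT1kd adherent and 66.6 ± 12 CPM in WT adherent cells, so that it was lower in suspension where most members were higher. Of 13 BMP ligands and receptors, 1 was higher, 3 lower and 9 not past the threshold with knockdown in suspension (median 0.01), and 1 was higher, 4 lower and 8 not past it in adherent culture (median 0.02). BMP4, a ligand, fell with knockdown in suspension (-0.86, SE 0.15, with 5.75 ± 0.90 CPM in EXT1kd and 10.45 ± 0.77 CPM in WT cells), with the median of its chromosome at -0.36.

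F-spondin is known to bind amyloid precursor family proteins and lipoprotein receptors of neurons. Of 6 tested partners, 2 were higher, 1 lower and 3 not past the threshold with knockdown in suspension (median 0.08), and 2 were higher, 2 lower and 2 not past it in adherent culture (median -0.25). DAB1, the adaptor below these receptors, averaged 11.6 ± 1.4 CPM in EXT1kd suspension, against 4.89 ± 0.82 CPM in WT suspension cells (log2 fold change 1.23, SE 0.19), the opposite direction to SPON1. APLP2 averaged 730 ± 16 CPM in EXT1kd adherent, against 465 ± 8.6 CPM in WT adherent cells (0.65, SE 0.06), and lies on the same chromosome as SPON1, whose median was 0.29. LRP8, one of the receptors, was lower with knockdown in adherent culture (-0.64, SE 0.09, with 29.6 ± 3.2 CPM in EXT1kd and 45.9 ± 1.3 CPM in WT cells).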

How the data were processed

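Gene levels were measured by poly-A RNA sequencing in 12 HEK293 libraries, 3 in each of 4 groups taken from the sample titles. The authors' deposited tables give, for each gene, a raw count of reads and an FPKM value (reads per kilobase and M reads). Per the submitters' processing notes, HISAT2 and featureCounts 1.5.0 were used with GRCh38; the HISAT2 version is not given in the sources used here. Each library's FPKM equals the value from the counts times 1 constant (0.942 to 1.029). Strand setting and annotation release are also not given there. The labels' protocol describes directional and non-directional libraries alike, so reads of overlapping genes cannot be told apart.

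Counts were tested with edgeR 4.0.16 (R 4.3.3): filterByExpr by group, which left 17115 genes with 99.9% of reads, TMM scaling, 1 mean per group over all 12 libraries, and quasi-likelihood F-tests. Calls needed an adjusted p (Benjamini-Hochberg, all tested genes) of at most 0.05, and every adjusted p comes from this test unless another is named. The SE of a log2 fold change is its size divided by the square root of F. Fold values are ratios of group mean CPM. Exact binomial 95% intervals on summed reads hold for counting error and not for PCR duplication. The members and the other gene lists were chosen with earlier results of these data known. All members were named, up to 4 genes per list past the threshold with the largest change, and genes among the 3 most like a variable member, 1 of which is not reported here. Alternatives used limma 3.58.1, DESeq2 1.42.0, other filters and scalings, a replicate block, chromosome medians removed and leaving out each library. Chromosome medians were taken over genes with a mean of at least 5 CPM. Promoter stretches were trimmed so as not to run into exons of the same gene in GENCODE 44. CYR61, CTGF, NOV and WISP3 are the table's names for CCN1, CCN2, CCN3 and CCN6. Replicate counts differed by more than sampling noise (chi-square over degrees of freedom 2.5 to 23.6), so no library was a copy of another. The fit was tried on simulated counts in which some genes were changed in EXT1kd suspension libraries and no gene differed otherwise. It recovered 80.4% of 2-fold and 98% of 4-fold changes, with 8 false calls in 16767 genes. Data in which many genes differ between cultures, as here, were not simulated.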

Additional observations from a re-analysis of the deposited data

Results flagged for a closer look

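For 6 of the 10 members, the change with knockdown differed between cultures when the difference itself was tested as an interaction in edgeR (adjusted p at most 0.05 over all genes), as it did for 24% of all tested genes. The values, suspension minus adherent on the log2 scale, were -3.46 for SPARC, -2.29 for SPON1, -1.62 for THBS4, 0.4 for TNC, 0.837 for SPOCK1 and 1.32 for SPOCK2. For SPARC, SPON1 and THBS4 the knockdown libraries lay below wild type in suspension and above it in adherent culture in all 3 libraries of each group. TNC was higher with knockdown in each culture and more so in suspension. SPOCK1 and SPOCK2 passed the threshold for a fall in adherent culture and not for a change in suspension, and both interactions were lost under some alternatives. No outlier test was run on groups of 3 libraries.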

How the results depend on the processing

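Of 50 member results, 10 genes in 5 comparisons, 42 kept their side of the threshold under every alternative run (up to 21 for a comparison of 2 groups), 7 calls were lost under at least 1, 1 was gained and 0 reversed. The lost calls were THBS4 with knockdown in suspension, SPOCK2 and TNC with knockdown in adherent culture, SPON1 and THBS1 between cultures in EXT1kd cells, and the interactions of SPOCK1 and SPOCK2; SMOC1 between cultures in EXT1kd cells was gained. The cause was not tested. Leaving out 1 library at a time, the number of members past the threshold ran from 4 to 5 (5 with all libraries) for knockdown in suspension, 5 to 6 (6) for knockdown in adherent culture, 7 to 9 (8) for culture in EXT1kd cells, stayed at 8 (8) for culture in WT cells and 4 to 6 (6) for the interaction. The labels do not say whether a replicate number marks a shared batch or day. Same-numbered libraries deviated from their group means with correlations from -0.21 to 0.338, which cannot decide this with 3 libraries in a group. A replicate block gave 5, 6, 8, 8 and 6 members past the threshold, the same counts as without it. THBS2 was dropped by the stricter filter and by the filter in fits to the 6 libraries of 1 comparison, and could not be fitted there. It thus had 19 alternatives in each comparison. Over all genes, the fit to the 6 libraries of 1 comparison alone called 5361 genes in suspension and 3067 in adherent culture, against 3577 and 4633 with all 12 libraries, and removal of chromosome medians left 2196, 2995 and, for the interaction, 2423 against 4114. Depth limits genes with few reads, such as THBS2 with 94 in all libraries and, outside the members, SPOCK3 with 175, SMOC2 with 90 and CD36 with 75.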
